A study of Mus musculus with 9 samples.

Results

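The Gadd45 genes of mouse embryonic stem cells were Gadd45a, Gadd45b and Gadd45g, the 3 members of the family, found by matching the accession of each array probe to a gene symbol. They were chosen by their own scaled signals in the comparisons below, in which family members went opposite ways, so their differences are a description and carry no test. Each member had 1 probe, so the family took 3 of the 55681 probes and 3 of the 26866 features tested. The cells were J1, a line of strain 129S4/SvJae from the inner cell mass, grown without feeder cells on gelatin in medium with serum replacement and 1000 U/mL of leukaemia inhibitory factor (LIF), which all groups received. Cultures were treated for 24 h with the solvent DMSO, with 3 µM CHIR99021 (called CHIR here), which blocks GSK3 and so turns on Wnt/beta-catenin signalling, or with 1 mM AICAR, a nucleoside whose phosphorylated form mimics AMP and turns on the energy sensor AMPK. The labels gave 3 arrays per group, all from this 1 line, and did not say whether replicates were separate cultures, so the p-values below rest on the spread among these arrays, part or all of which may be technical.

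GADD45 proteins are small acidic proteins with no known enzyme activity that act by binding others. They bind and activate the kinase MAP3K4, which feeds the p38 and JNK stress kinases, hold back the mitotic kinase CDK1 with cyclin B1, bind PCNA and p21, and help DNA demethylation by recruiting repair factors to methylated sites. Gadd45a is the classical DNA damage gene of the family and a target of p53, Gadd45b is induced by TGF-beta and NF-kB signals, and Gadd45g by cytokines. In mouse embryonic stem cells the family is known for roles in leaving pluripotency and in the rare state that resembles the embryo at the 2-cell stage.

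The members start from different promoters, and the 250 bases before each annotated start are shown as a description. Whether any motif bears on the signals was not tested. The sequences are RefSeq's, of build GRCm38.p6, and all members had 1. Capitals mark matches, on either strand, to a motif searched. Gadd45a (chr6:67037408-67037657, minus strand) held the octamer ATTTGCAT, which POU factors bind, once on each strand, with a CCAAT box, the letters that NF-Y binds, between them. Gadd45b (chr10:80929841-80930090, plus strand) held 2 CCAAT boxes, the E-box CACGTG, which factors of the Myc family bind, and a TATA box, TATAAA. Gadd45g (chr13:51846425-51846674, plus strand) held 1 of each of the 4 motifs.
Gadd45a: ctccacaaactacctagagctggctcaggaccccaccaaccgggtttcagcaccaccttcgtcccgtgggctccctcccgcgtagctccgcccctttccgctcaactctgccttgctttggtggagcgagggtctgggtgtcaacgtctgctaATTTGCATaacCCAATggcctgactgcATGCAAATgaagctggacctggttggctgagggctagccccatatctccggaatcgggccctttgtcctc
Gadd45b: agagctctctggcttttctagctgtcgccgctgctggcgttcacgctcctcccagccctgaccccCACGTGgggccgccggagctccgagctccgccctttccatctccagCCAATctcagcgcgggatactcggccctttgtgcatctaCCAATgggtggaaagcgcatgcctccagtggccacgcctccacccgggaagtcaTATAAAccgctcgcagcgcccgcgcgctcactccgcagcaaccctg
Gadd45g: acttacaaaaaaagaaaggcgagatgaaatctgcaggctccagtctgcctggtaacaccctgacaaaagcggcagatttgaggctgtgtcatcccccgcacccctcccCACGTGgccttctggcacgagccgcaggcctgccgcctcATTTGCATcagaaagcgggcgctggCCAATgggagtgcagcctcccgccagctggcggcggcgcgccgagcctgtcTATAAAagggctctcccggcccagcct

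Of 32851 RefSeq promoter windows of this length, 1.6% held the octamer, 33.8% a CCAAT box, 12.4% TATAAA and 6.02% CACGTG on either strand. The octamer, also the longest of the motifs found, was thus the least common of them. It stood in the windows of Gadd45a and Gadd45g and not in that of Gadd45b. Its matches lay 97 to 90 and 70 to 63 bases before the start of Gadd45a and 103 to 96 bases before that of Gadd45g. None of the 3 windows held the cyclic AMP response element TGACGTCA (1.55% of windows), the TCF/LEF element CTTTGAT (3.21%) or the forkhead element TGTTTAC (3.17%), which says only that these letters are not there. No motif searched overlapped another in the 3 windows. GC content was 59.2%, 65.2% and 62% for Gadd45a, Gadd45b and Gadd45g, against a median of 52.4% over all windows.

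**Figure D1:**
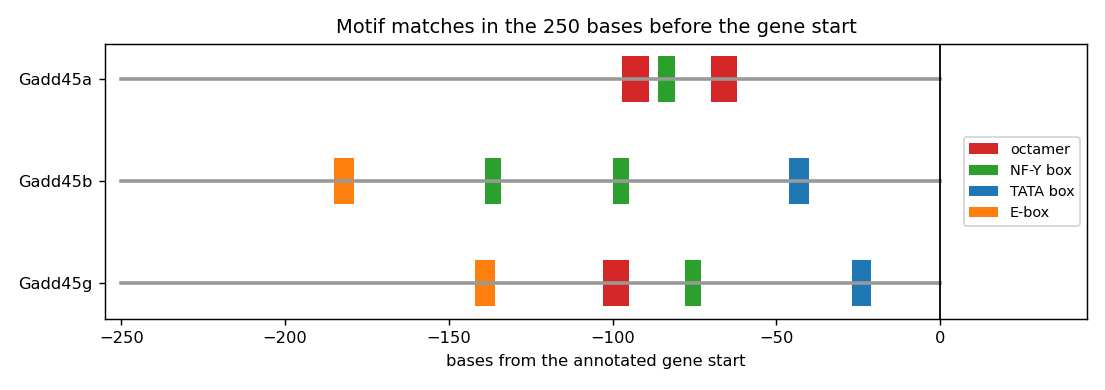
Motif matches in the 250 bases before the annotated start of each Gadd45 gene, with distance from the start in bases on the horizontal axis and the start at 0. Coloured blocks are matches on either strand (the NF-Y box is the CCAAT box). The octamers of Gadd45a and Gadd45g lie within about the same distance of the start, and Gadd45b has none.

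The values are the log2 of each spot's processed signal minus the 75th percentile of its array, here called the scaled level. Spots well above background made up 62.8% to 67.2% of each array, and 75th percentiles of the signal ran from 567.3 to 617.4. The correlation across features was 0.995 to 0.997 within groups and 0.973 to 0.983 between groups. The 3 groups sat on 3 different slides, so that a slide effect and a treatment effect cannot be told apart here. All 3 members were well above background and below saturation on all 9 arrays, and all passed the filter on dim probes.

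Gadd45a, the DNA damage gene, lay lower with both treatments, at nearly equal levels. Its processed signal was 2132, 2063 and 1983 on the DMSO arrays, 992, 1080 and 1104 on the CHIR arrays and 1083, 1050 and 1060 on the AICAR arrays. All 6 treated arrays lay below all 3 DMSO arrays, while the treated groups overlapped. The scaled level was 1.76 ± 0.05 (SD, n = 3) in DMSO, 0.87 ± 0.07 in CHIR and 0.85 ± 0.05 in AICAR. The log2 difference from DMSO was -0.88 ± 0.06 (SE of the fit) with CHIR and -0.91 ± 0.06 with AICAR, or 54.2% and 53.3% of the DMSO level. Between the treatments it was 0.02 ± 0.06, within the spread of the arrays, and its sign was not stable, at -0.17 when arrays were scaled on their spike-in controls.

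Gadd45b, the member that TGF-beta and NF-kB induce, went opposite ways with the treatments. The signal was 4259, 4335 and 4173 in DMSO, 2869, 2862 and 3168 in CHIR, and 14050, 13429 and 12222 in AICAR. The 3 groups did not overlap anywhere, with AICAR highest and CHIR lowest. The scaled level was 2.80 ± 0.03 in DMSO, 2.36 ± 0.07 in CHIR and 4.48 ± 0.05 in AICAR. The log2 difference from DMSO was -0.45 ± 0.05 with CHIR, 73.4% of the DMSO level, and 1.68 ± 0.05 with AICAR, a ratio of 3.20. The log2 difference between CHIR and AICAR was -2.12 ± 0.05.

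Gadd45g, the cytokine-induced member, had the widest difference with CHIR and hardly any with AICAR. The signal was 6200, 6252 and 6285 in DMSO, 1094, 1110 and 1080 in CHIR, and 5815, 5803 and 4736 in AICAR. The 3 CHIR arrays stood far below the other 6, and the AICAR arrays lay just under the DMSO arrays, with replicate 3 the lowest of them. The scaled level was 3.36 ± 0.02 in DMSO, 0.92 ± 0.03 in CHIR and 3.20 ± 0.12 in AICAR. The log2 difference from DMSO was -2.44 ± 0.06 with CHIR, 18.5% of the DMSO level, and -0.16 ± 0.06 with AICAR. With AICAR the nearest arrays of the groups were 0.04 apart, the difference was -0.09 without AICAR replicate 3, and it was -0.03 with spike-in or quantile scaling. The sign of the AICAR difference was negative under all 17 alternatives run, but several of these could not change it. With 1 bright probe, the other filters and probe rules and the replicate block returned -0.16 by design. Leaving out a CHIR array cannot move it either. Its size moved with the scaling, whereas CHIR lay far below both.

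**Figure D2:**
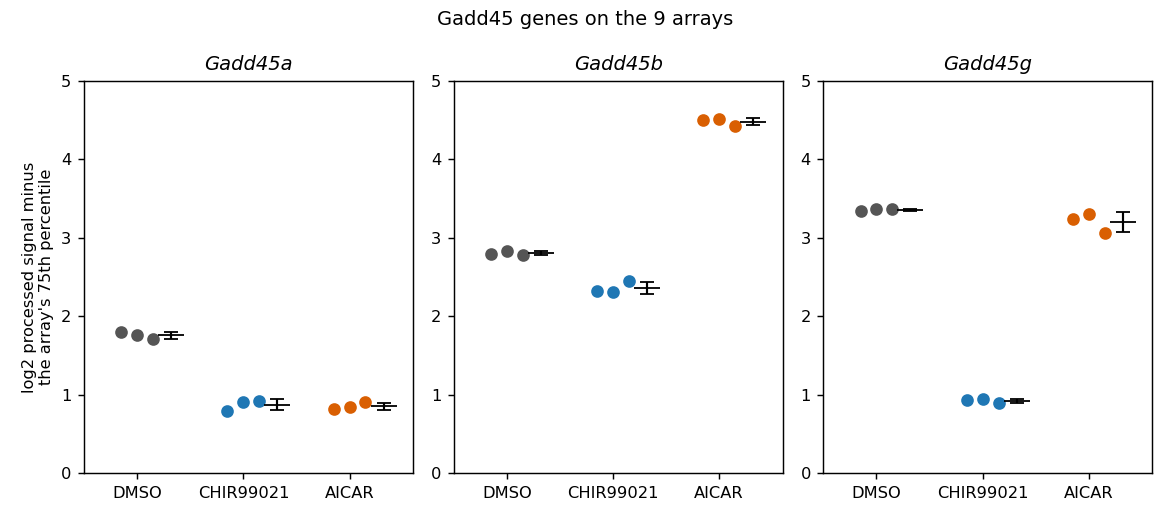
Scaled level (log2 processed signal minus the array's 75th percentile) of each Gadd45 gene on the 9 arrays, 3 per group. Points are arrays, and the bar beside them is the group mean with its SD. Gadd45a is lower in both treated groups, Gadd45b is low with CHIR99021 and high with AICAR, and Gadd45g is low with CHIR99021 at 0.92 against 3.36 in DMSO and 3.20 in AICAR.

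Set against all features, the members' arrays separated from DMSO as many others did. With CHIR all 3 members lay below DMSO without overlap, as did 25.8% of the features. With AICAR Gadd45a and Gadd45g lay below without overlap, as did 32.8%, and Gadd45b above, as did 34.3%. Gadd45b and Gadd45g lay lower in CHIR than in AICAR without overlap, as did 26.6%. As these contrasts chose the members, nothing is read from the counts. In size, 0.31% of features had a lower log2 difference with CHIR than Gadd45g, 5.2% than Gadd45a and 13.66% than Gadd45b. With AICAR 2.09% of features had a higher log2 difference than Gadd45b, and 6.48% a lower one than Gadd45a.

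The gaps between members' responses were compared within each array, as each member's scaled level minus its DMSO mean. With CHIR the response of Gadd45b was above that of Gadd45a by 0.44 ± 0.07 (SD, n = 3) and above that of Gadd45g by 1.99 ± 0.10, so that Gadd45g stood apart from the others. With AICAR the response of Gadd45b was above that of Gadd45a by 2.59 ± 0.09 and above that of Gadd45g by 1.84 ± 0.08, so that Gadd45b stood apart. Gadd45a responded more weakly than Gadd45g to CHIR, with a gap of 1.55 ± 0.09, and more strongly to AICAR, with a gap of -0.75 ± 0.17. These gaps compare responses, not levels, and both treatments share the same DMSO arrays.

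**Figure D3:**
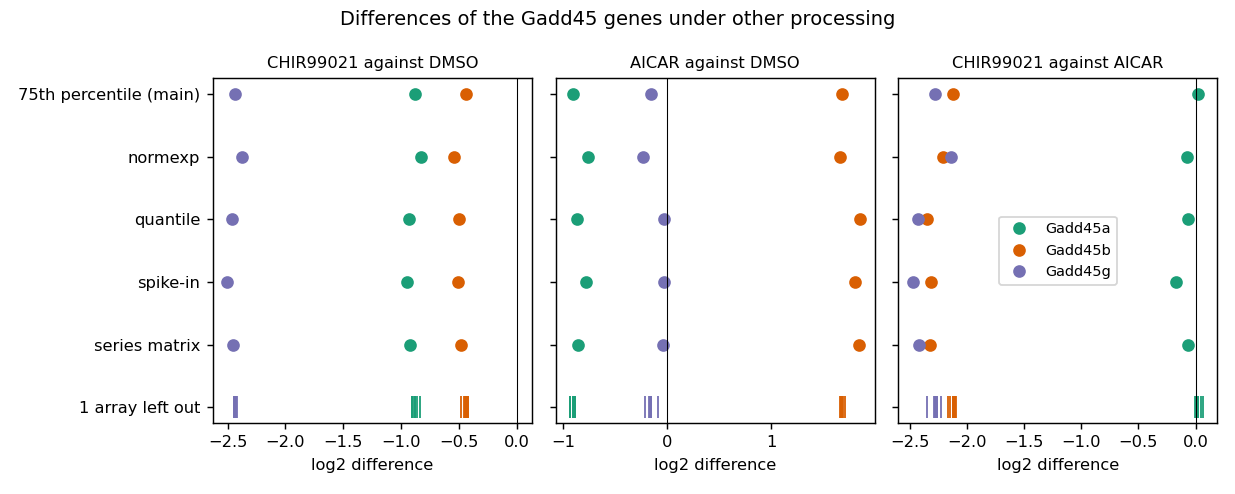
Log2 difference of each Gadd45 gene in the 3 comparisons, on the horizontal axis, under 5 ways of processing (points) and with each of the 9 arrays left out in turn (ticks). Gadd45b stays above 0 with AICAR and below 0 with CHIR99021, Gadd45g stays near -2.44 with CHIR99021, and Gadd45a stays near 0 between the treatments.

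The genes whose profile over the 9 arrays was closest to each member were named by the root mean square difference of values centred on each gene's mean, among 16044 genes with a symbol. Closest to Gadd45a were Slc7a7, a cationic amino acid transporter subunit (0.05), Zfp512b (0.06), Tceal5 (0.07) and Fthl17f (0.08). These 4 genes had log2 differences of -0.75 to -0.99 with CHIR and of -0.83 to -1 with AICAR. Closest to Gadd45b were Ndrg1, known as a gene that hypoxia induces (0.04), Igsf21 (0.08), Vegfa, an angiogenic growth factor (0.08), and Bhlha15, a transcription factor of secretory cells (0.09), which lay at -0.3 to -0.52 with CHIR and at 1.54 to 1.84 with AICAR. Closest to Gadd45g were Calca, which encodes calcitonin and CGRP (0.10), the calponin gene Cnn1 (0.14), Helz2 (0.15) and Ppp1r14a, an inhibitor of myosin phosphatase (0.16). They lay at -2.13 to -2.29 with CHIR and at -0.11 to 0.14 with AICAR.

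**Figure D4:**
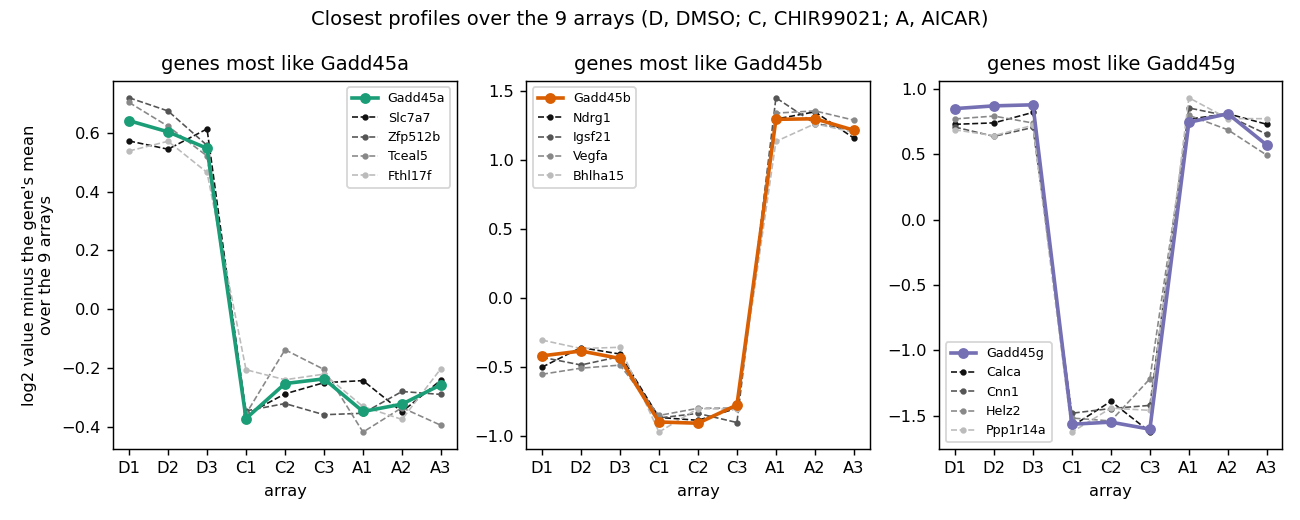
Values centred on each gene's mean over the 9 arrays (log2) for each Gadd45 gene, thick line, and the 4 genes with the closest profile, thin dashed lines. D, C and A are the DMSO, CHIR99021 and AICAR arrays, numbered by replicate, and lines only join points of a gene. The closest gene, Ndrg1, differs from Gadd45b by 0.04 on the root mean square.

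Factors known to act on Gadd45 promoters or to carry the signals that induce these genes were listed next, and several of them fell far. Of 20 such regulators 8 fell and 3 rose with CHIR, where 20.5% of all features fell and 30.4% rose by limma at an adjusted p under 0.05, and the list's median log2 fold change was -0.02 against 0.07 over all features. With AICAR 13 fell and 3 rose, where 29.6% of features fell and 30.9% rose, and the median was -0.21 against 0.03. Wt1, a zinc finger factor that in human cells takes part in p53-dependent control of GADD45A, was at -3.63 ± 0.08 with CHIR and -4.99 ± 0.08 with AICAR. Egr1, an immediate-early zinc finger factor, was at -2.54 ± 0.08 and -3.27 ± 0.08. Myc, which represses Gadd45a, was at -0.59 ± 0.08 with CHIR and -3.72 ± 0.08 with AICAR (limma adjusted p = 0.000625 and 6.61e-08). Whether Myc acted on Gadd45a here was not tested. Foxo1 fell with CHIR, at -0.76 ± 0.06. Tgfb1, the cytokine that induces Gadd45b, rose by 0.69 ± 0.08 with CHIR and by 1.58 ± 0.08 with AICAR. Of the other listed genes of the TGF-beta and NF-kB signals, named here after their values were seen, only Nfkb2 rose with AICAR, by 1.47 ± 0.10. Nfkb1 was at -0.36 ± 0.05. The scaled level of Smad2 was 0.27, 0.40 and 0.18 in AICAR, against 1.00, 0.91 and 1.08 in DMSO. That of Rela was 3.03, 2.92 and 2.98 against 3.17, 3.11 and 3.11. Smad4 was at 3.26, 3.19 and 3.18 against 3.40, 3.30 and 3.34, and the groups overlapped for Smad3. Foxo3, a forkhead factor that induces Gadd45a, rose by 0.96 ± 0.14 with AICAR and did not pass with CHIR, at 0.24 ± 0.14 (limma adjusted p = 0.196). With normexp Tgfb1 was at 0.40 with CHIR and 0.95 with AICAR, and Foxo3 at 0.58 with AICAR. With spike-in scaling 6 regulators fell and 4 rose with AICAR, and 5 fell and 1 rose with CHIR. Over all features this scaling gave 4507 lower and 8976 higher with AICAR, and 4811 lower and 4516 higher with CHIR. The main fit gave 7942 lower and 8310 higher with AICAR, and 5516 lower and 8180 higher with CHIR.

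Targets of p53 other than Gadd45a mostly went up with AICAR. Of 22 genes, p53 itself included, 14 rose and 6 fell with AICAR (median 0.44), and 10 rose and 5 fell with CHIR (median 0.07). Among all features 30.9% rose and 29.6% fell with AICAR, and 30.4% rose and 20.5% fell with CHIR. The Trp53 transcript was at -0.75 ± 0.10 with AICAR and -0.38 ± 0.10 with CHIR (limma adjusted p = 0.0163), the last call lost without DMSO replicate 1 or CHIR replicate 1 (adjusted p = 0.0521 and 0.0507). The death receptor gene Fas rose by 1.82 ± 0.09 with AICAR, Rrm2b, a ribonucleotide reductase subunit, by 1.72 ± 0.12, the antiproliferative gene Btg2 by 1.39 ± 0.08 and Perp by 1.35 ± 0.06. The probes of Rrm2b ranged from 0.44 to 1.72, and with normexp Fas was at 0.87 and Rrm2b at 0.81. Mdm2, the ligase that degrades p53, rose by 0.36 ± 0.05 with AICAR, or by 0.54 with quantile scaling, and was at -0.10 ± 0.05 with CHIR (limma adjusted p = 0.161). With CHIR, Cdkn1a, which encodes p21, rose by 1.91 ± 0.11 at its brightest probe and by 0.39 at the other, Phlda3, which restrains Akt, rose by 1.21 ± 0.05 and Tigar, which slows glycolysis, by 1.03 ± 0.06, while Bbc3, which encodes the death inducer PUMA, fell to 0.499 of its DMSO level. Tigar fell with AICAR, at -0.85, the lowest value of the list there. Bax (-0.63), Ei24 (-0.38) and Aen (-0.34), named here after their values were seen, also fell with AICAR. Cdkn1a rose with AICAR too, by 0.80 ± 0.11, its other probe being at -0.12. Means of its probes were 1.15 with CHIR and 0.34 with AICAR. Gadd45a lay lower in both treated groups, where p21 transcripts were higher at the brightest probe. Whether p53 acted on either gene here was not tested.

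Other stress-response genes split in both treatments. Of 17 tested genes of the ATF4 and CHOP pathway, which cells switch on when amino acids or protein folding fail, 8 rose and 9 fell with AICAR (median -0.47). With CHIR 4 rose and 7 fell (median -0.11). Shares over all features were 30.9% rising and 29.6% falling with AICAR, and 30.4% and 20.5% with CHIR. Ddit3, which encodes CHOP and was found with Gadd45a in a screen of hamster cells for growth arrest and DNA damage genes, rose by 1.22 ± 0.06 with AICAR. Ppp1r15a, which encodes GADD34 of the same screen and restarts translation after stress, fell with AICAR, at -0.73 ± 0.07, and did not pass with CHIR, at -0.11 ± 0.07 (limma adjusted p = 0.247). Atf4 was at -1.08 ± 0.07 with AICAR, its target Chac1 at -1.91 ± 0.07 and its target Trib3 at -0.77 ± 0.08, whereas Ddit4, an mTORC1 inhibitor, rose by 1.78 ± 0.16 and Atf3 by 0.46 ± 0.07. With CHIR Chac1 was at -1.48 ± 0.07, Cebpb at -0.59 ± 0.07 and Trib3 at -0.58 ± 0.08, and asparagine synthetase (Asns) rose by 0.98 ± 0.05. Atf3 did not pass with CHIR, at 0.01 ± 0.07 (limma adjusted p = 0.888).

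Small shifts with CHIR in this group were near the threshold. Atf4 was at -0.22 ± 0.07 (limma adjusted p = 0.0258), and the call was lost without any 1 of DMSO replicates 1, 2 and 3 or CHIR replicates 1 and 3 (adjusted p = 0.0505 to 0.0836), while its value stayed between -0.27 and -0.18 without any 1 array. Ddit3 was at 0.19 ± 0.06 (limma adjusted p = 0.0335), and its call was lost without any 1 of the 3 DMSO or 3 CHIR arrays (adjusted p = 0.0578 to 0.0947), while its value stayed between 0.18 and 0.21. As a mean of its probes Atf4 was at -0.39. With spike-in scaling neither passed (limma adjusted p = 0.0907 for Atf4 and 0.297 for Ddit3).

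**Figure D5:**
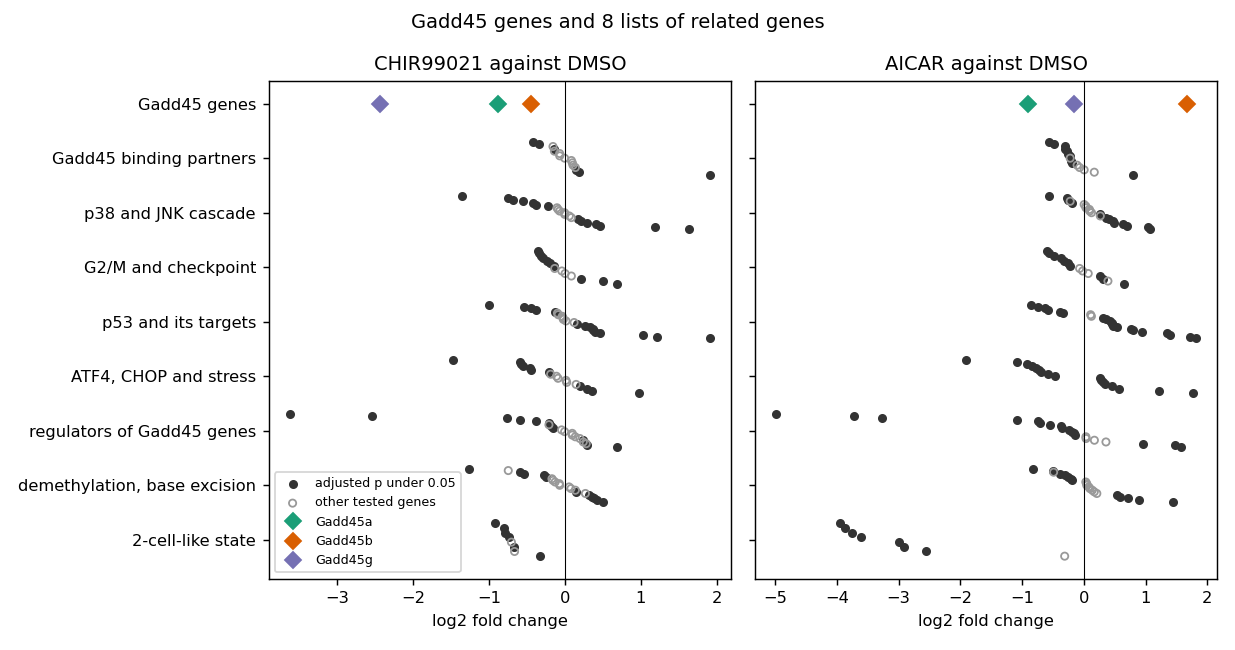
Log2 fold change against DMSO (horizontal axis) of the Gadd45 genes, diamonds, and of all tested genes of 8 lists of related genes, 1 row a list, for CHIR99021 on the left and AICAR on the right. Filled points passed the limma test at an adjusted p under 0.05 and open points did not, the diamonds were not tested, and both panels share the DMSO arrays. The 2-cell-like genes have a median of -3.30 with AICAR, and p53 targets lie mostly above 0 there.

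At the brightest probe of each gene, the transcripts of proteins that GADD45 binds lay within 0.56 of DMSO on the log2 scale in both treatments, apart from that of p21 (Cdkn1a), described above. Of 15 tested partners 3 rose and 3 fell with CHIR (median 0.00), and 1 rose and 9 fell with AICAR (median -0.22). Of all features 30.4% rose and 20.5% fell with CHIR (median 0.07), and 30.9% rose and 29.6% fell with AICAR (median 0.03). Map3k4, the kinase that GADD45 proteins activate, did not pass, at -0.07 ± 0.05 with CHIR and 0.01 ± 0.05 with AICAR (limma adjusted p = 0.305 and 0.927). With AICAR the mitotic kinase Aurka was at -0.56 ± 0.05, cyclin B1 (Ccnb1) at -0.48 ± 0.05, Ing1, a chromatin reader that guides GADD45A to DNA, at -0.30 ± 0.05, Gadd45gip1, a mitochondrial protein that binds GADD45, at -0.26 ± 0.06 and the glycosylase Tdg at -0.20 ± 0.05. With CHIR the JNK-activating kinase Map2k7 was at -0.42 ± 0.08, Ccnb1 at -0.34 ± 0.05 and Gadd45gip1 at -0.14 ± 0.06 (limma adjusted p = 0.0975). Pcna, the sliding clamp of DNA replication, rose by 0.18 ± 0.05 with CHIR. It was at -0.11 ± 0.05 with AICAR (limma adjusted p = 0.0735), a value that passed without AICAR replicate 2 (adjusted p = 0.0442). Cdk1 did not pass, at 0.09 ± 0.05 with CHIR and -0.07 ± 0.05 with AICAR (limma adjusted p = 0.166 and 0.246), and its 3 probes disagreed, from -0.32 to 1.61 with CHIR and from -0.54 to 1.07 with AICAR. The calls of Ing1, Gadd45gip1 and Tdg with AICAR and of Pcna with CHIR did not hold when arrays were scaled on spike-ins (limma adjusted p = 0.152, 0.335, 0.645 and 0.324). The spike-in means themselves spread widest in AICAR, at 12.885 to 13.216 in log2, against 13.178 to 13.261 in DMSO and 13.183 to 13.264 in CHIR. The part of this spread in the lost calls was not tested. Map3k4 passed with AICAR under quantile scaling, at 0.20 (limma adjusted p = 0.0141), and Cdk1 with CHIR as a mean of its probes, at 0.46 (adjusted p = 0.00045). Gadd45gip1 passed with CHIR under normexp, quantile and series matrix values and as a mean of its probes, at -0.17 to -0.21 (adjusted p = 0.0222 to 0.0487). Quantile scaling put Aurka at -0.35, Ccnb1 at -0.30 and Ing1 at -0.14 with AICAR, the mean of probes put Ccnb1 at -0.22 with CHIR, and normexp put Map2k7 at -0.20 with CHIR. With spike-in scaling 2 partners rose and 2 fell with AICAR, so the majority of falls rests on the scaling, and with quantile scaling 1 rose and 5 fell with CHIR. All features moved too. With AICAR 8976 rose and 4507 fell on spike-ins, against 8310 and 7942 in the main fit. With CHIR 6844 rose and 6399 fell with quantile scaling, against 8180 and 5516.

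In the p38 and JNK cascade, which GADD45 proteins feed through Map3k4, 7 of 21 genes rose and 7 fell with CHIR (median 0.00), and 9 rose and 4 fell with AICAR (median 0.12). Across all features 30.4% rose and 20.5% fell with CHIR, and 30.9% rose and 29.6% fell with AICAR. With spike-in scaling 3 rose and 6 fell with CHIR, where 4516 of all features rose and 4811 fell. Of 3 phosphatases that switch these kinases off, Dusp1 rose by 1.19 ± 0.09 with CHIR and 1.03 ± 0.09 with AICAR, and Dusp10 by 1.63 ± 0.23 and 1.07 ± 0.23. Dusp16, named here after its values were seen, fell with CHIR, at -0.56 ± 0.05, and rose by 0.26 ± 0.05 with AICAR. With normexp Dusp10 was at 0.74 with CHIR and 0.44 with AICAR, and Mapk10 at -0.33 with CHIR. Of the kinases, Mapk12 (p38 gamma) was at -1.35 ± 0.07 and Mapk10 (JNK3) at -0.75 ± 0.13 with CHIR. With AICAR Mapk13 (p38 delta) rose by 0.70 ± 0.08 and Mapk11 (p38 beta) by 0.64 ± 0.07. Mapk14, p38 alpha, did not pass, at 0.00 ± 0.11 with CHIR and -0.22 ± 0.11 with AICAR (limma adjusted p = 0.985 and 0.113), the last value passing without CHIR replicate 3 (adjusted p = 0.0123).

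The list of G2/M kinases and checkpoints held 14 genes, among them Cdk1 and Ccnb1, whose proteins GADD45 holds back. In it 3 rose and 7 fell with CHIR (median -0.14), and 3 rose and 7 fell with AICAR (median -0.14). For all features the shares were 30.4% rising and 20.5% falling with CHIR, and 30.9% and 29.6% with AICAR. With AICAR the phosphatase gene Cdc25b rose by 0.65 ± 0.06 and the mitotic kinase Plk1 was at -0.59 ± 0.06. With CHIR the checkpoint kinase Chek2 rose by 0.50 ± 0.08, cyclin B2 (Ccnb2) was at -0.36 ± 0.05, and Sfn, which encodes 14-3-3 sigma, was higher by 0.69 ± 0.19 (limma adjusted p = 0.0158), a call lost without DMSO replicate 2 (adjusted p = 0.0540). With spike-in scaling 4 of these genes rose and 3 fell with AICAR, so the majority of falls there rests on the scaling. Among all features 8976 rose and 4507 fell with that scaling, against 8310 and 7942 in the main fit.

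A list of DNA demethylation, which GADD45 proteins help, and base excision repair held 21 genes. Of these only Tdg, Ing1 and Ercc5 are also in the list of binding partners above. In it 6 rose and 5 fell with CHIR (median -0.07), and 5 rose and 7 fell with AICAR (median 0.05). The whole set of features had 30.4% rising and 20.5% falling with CHIR, and 30.9% and 29.6% with AICAR. Tet1, which oxidises 5-methylcytosine, was at -0.54 ± 0.09 with CHIR. With AICAR it was at -0.25 ± 0.09 (limma adjusted p = 0.0448), a call lost without any 1 of DMSO replicates 1, 2 and 3, CHIR replicates 1 and 3, or AICAR replicate 1 (adjusted p = 0.0568 to 0.121), and with quantile scaling (0.573). Tdg, which excises the oxidised bases, was at 0.14 ± 0.05 with CHIR (limma adjusted p = 0.0638), or at 0.29 as a mean of its probes (adjusted p = 0.00143), and Ing1 at 0.15 ± 0.05 (limma adjusted p = 0.0310), a call lost without any 1 of the 3 DMSO or 3 CHIR arrays (adjusted p = 0.0657 to 0.0959), and with quantile scaling (0.153). Apobec2, a relative of the cytidine deaminases, rose by 1.44 ± 0.14 with AICAR and was at -1.26 ± 0.14 with CHIR. With normexp these values were 0.91 and -0.39. With CHIR Apobec1 was at -0.59 ± 0.04 and the glycosylase Neil2 rose by 0.51 ± 0.07. With AICAR the glycosylases Smug1 and Neil3 rose by 0.90 ± 0.11 and 0.71 ± 0.08, and the nucleotide excision factor Xpa was at -0.82 ± 0.07. With quantile scaling 10 of these genes rose and 5 fell with AICAR, and with spike-in scaling 6 rose and 2 fell, so the balance rests on the scaling. With CHIR 5 rose and 7 fell with quantile scaling. Of all features 8518 rose and 7079 fell with AICAR under quantile scaling, and 8976 and 4507 under spike-in scaling. With CHIR 6844 rose and 6399 fell under quantile scaling.

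Genes of the 2-cell-like state, in which the Gadd45 family has been studied in these cells, mostly fell with both treatments. Of 8 tested members of 15 listed, 6 fell and 0 rose with CHIR (median -0.72), and 7 fell and 0 rose with AICAR (median -3.30, or -3.01 with 1 gene at its bound). Over all features 20.5% fell and 30.4% rose with CHIR, and 29.6% fell and 30.9% rose with AICAR. With AICAR Zscan4f, Zscan4a and Zscan4c, zinc finger genes that mark this state, were at -3.87 ± 0.07, -3.76 ± 0.09 and -3.61 ± 0.12, and Usp17lb, not well above background on any AICAR array, was at least 8.11-fold lower. With normexp, which adds an offset to each signal, the Usp17lb value was -0.91 on the log2 scale. With CHIR Zscan4f was at -0.92 ± 0.07, Zscan4a at -0.80 ± 0.09, Zscan4c at -0.80 ± 0.12 and Zfp352 at -0.74 ± 0.14. Zfp352 was at only -0.31 with AICAR, the smallest fall of the list there, and did not pass. Probes of the Zscan4 genes may bind more than 1 copy, so these values are uncertain as to the copy. In RNA from whole cultures, fewer cells of a state and less RNA per cell cannot be told apart, for these genes and for the Gadd45 genes alike.

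The labelled cell type was checked on defining markers. All 10 embryonic stem cell markers, such as Pou5f1, Nanog and Sox2, were well above background on every array, and the sum of their signals, in units of the array's 75th percentile, was 611.6 to 630.5 in DMSO, 578.9 to 604.8 in CHIR and 614.1 to 660.2 in AICAR. The sum hides shifts of single markers. With CHIR 3 were higher and 3 lower (-1.22 to 0.73), and with AICAR 5 higher and 3 lower (-1.34 to 0.46). Shares over all features were 30.4% higher and 20.5% lower with CHIR, and 30.9% and 29.6% with AICAR. Markers of the primitive streak and mesoderm moved with the treatments. Of 8 tested, 7 were higher and 0 lower with CHIR, and 5 higher and 1 lower with AICAR. Their sum, over 8 of 9 markers, was 1.35 to 1.40 in DMSO, 9.07 to 9.41 in CHIR and 2.18 to 2.38 in AICAR, Mixl1 did not pass the filter, and Evx1 was not well above background on any DMSO or AICAR array. The largest part of the CHIR sum was the gene T, at scaled levels of 2.635 to 2.675 there. The sum of 8 neural ectoderm markers was 5.73 to 6.08, 3.12 to 3.60 and 4.03 to 4.32 in DMSO, CHIR and AICAR, with 1 marker higher and 5 lower in each treatment. That of 9 primitive endoderm markers was 12.4 to 13.6, 15.8 to 16.7 and 15.7 to 17.2, with 4 higher and 3 lower with CHIR and 6 higher and 3 lower with AICAR. Lama1 made the largest part of this sum in every group. That of 5 of 8 trophoblast markers was 12.7 to 13.4, 20.9 to 22.2 and 22.2 to 23, with Elf5, Hand1 and Tpbpa failing the filter. Of these 5, Tfap2c (0.58), Krt8 (0.73) and Cdx2 (7.27) rose and Gata3 fell (-1.26) with CHIR. With AICAR Tfap2c (0.66), Krt8 (1.87) and Krt18 (1.02) rose and Gata3 fell (-1.60), while Cdx2, not well above background on any AICAR array, was at least 1.54-fold lower. That of 8 of 10 fibroblast markers was 2.74 to 2.87, 3.05 to 3.18 and 3.98 to 4.68, with Lum and Postn failing the filter. Pdgfrb (2.13 with CHIR, 2.32 with AICAR) and S100a4 (0.47, 0.48) rose and Col1a1 (-0.38, -0.51) and Col1a2 (-0.48, -1.29) fell in both, Fbln2 (0.24) rose with CHIR and Thy1 (0.91) with AICAR, and Dcn, not well above background on any AICAR array, was at least 2.00-fold lower there. The medians of these 8 were 0.02 with CHIR and -0.04 with AICAR. The part of these shifts in the Gadd45 values was not tested.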

How the data were processed

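Total RNA of 9 samples was labelled with 1 dye and put on Agilent arrays. The deposited scanner files hold intensity values per spot on a linear scale, made with Agilent Feature Extraction 10.7.3.1 per the file headers and 10.7 per the submitters' processing notes. Log2 values of the authors are in the deposited series matrix. Its columns had a median of 5.18 each and correlated with the log2 processed signal at 0.99962 to 0.99999, its centring is unknown, and it served as an alternative. Flags, which are other values in the deposited files, marked controls, saturation, spots well above background and outliers (136 to 192 spots an array, left out).

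From these, log2 processed signals were scaled by subtracting the 75th percentile of the array's 59305 spots other than controls, and repeat spots were averaged per probe. Probes well above background on at least 3 of 9 arrays were kept (37742 of 55681), and each gene took its brightest probe. Accessions without versions were matched to RefSeq symbols of GRCm38.p6 (27235 probes matched, 28446 not). The headers name build mm9, so only the promoter windows carry positions, in GRCm38.p6. One model (lmFit, eBayes; limma 3.58.1, R 4.3.3) held the 9 arrays. P-values were adjusted by Benjamini-Hochberg over 26866 features, an error after a log2 fold change is the fit's SE, with 3 arrays per group, and the number of arrays limits the precision. The labels do not say whether replicate numbers pair samples. Same-numbered arrays' deviations correlated at -0.055 to 0.088, which cannot settle it, and the main fit used no block.

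The members, the 8 gene lists and the tests were chosen with earlier results of these data known. Named were the members, 20 genes whatever their result, up to 4 called genes with the largest change per list and comparison with DMSO, and the 4 genes closest in profile to each member. A few other genes are marked in the text as named after their values were seen. The steps were tested on simulated data. Alternatives were normexp, quantile, spike-in and series matrix values, other filters and probe rules, a replicate block, fits of 2 groups and leaving out each array. The files hold no mean signal, so normexp (offset 50) used the median signal, chosen after seeing the data.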

Additional observations from a re-analysis of the deposited data

How the results depend on the processing

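With normexp the differences from DMSO were -2.37 (Gadd45g) and -0.55 (Gadd45b) for CHIR and -0.76 (Gadd45a) for AICAR, and CHIR minus AICAR was -0.0768 for Gadd45a, -2.21 for Gadd45b and -2.14 for Gadd45g. With quantile scaling CHIR minus DMSO was -2.47 for Gadd45g, AICAR minus DMSO was 1.86 for Gadd45b and -0.0311 for Gadd45g, and CHIR minus AICAR was -0.0661, -2.36 and -2.43 for Gadd45a, Gadd45b and Gadd45g. With spike-in scaling, which moved the median of all features from 0.07 to 0.003 with CHIR and from 0.03 to 0.16 with AICAR, CHIR minus DMSO was -0.95, -0.51 and -2.50 for Gadd45a, Gadd45b and Gadd45g, AICAR minus DMSO -0.78, 1.81 and -0.0273, and CHIR minus AICAR -0.17, -2.32 and -2.47. With the series matrix AICAR minus DMSO was -0.85, 1.84 and -0.0377, and CHIR minus AICAR -0.0686, -2.33 and -2.42. Leaving out 1 array gave Gadd45a -0.91 to -0.84 with CHIR, -0.93 to -0.88 with AICAR and -0.0029 to 0.0647 between them, Gadd45b -0.49 to -0.42, 1.67 to 1.71 and -2.17 to -2.10, and Gadd45g -2.45 to -2.42, -0.209 to -0.0885 and -2.35 to -2.23.

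Features called numbered 13696 with CHIR, 16252 with AICAR and 16328 between treatments, or 11745 to 14027, 14569 to 16158 and 14934 to 16040 without 1 array. Called features higher made up 59.7%, 51.1% and 59.5%, against 48.4%, 66.6% and 34.5% with spike-in scaling. That scaling called 9327, 13483 and 12098 features in the same order. With the replicate block 12711, 15460 and 15682 were called, and the calls of Atf4 (adjusted p = 0.0618), Ddit3 (0.0681) and Ing1 (0.0690) with CHIR and Tet1 with AICAR (0.0798) were lost. Numbers of list genes called that moved by over 1.5 times were, with spike-in scaling, 3 partners, 6 regulators, 7 demethylation genes and 9 p38 and JNK genes for CHIR and 4 partners and 10 regulators for AICAR, with the mean of probes 10 partners and 9 p38 and JNK genes for CHIR, and with all 9 arrays above background 4 of the 2-cell-like genes for AICAR, since fewer genes were tested. Values near 0 that had not passed changed sign: Atf3 with CHIR (-0.035 quantile, -0.0515 spike-in, -0.0505 series matrix, -0.0528 to 0.0568 without 1 array), Cdk1 with AICAR (0.0588 quantile, 0.0625 spike-in, 0.059 series matrix, 0.16 mean of probes), Map3k4 with AICAR (-0.0177 normexp, -0.0352 to 0.0352 without 1 array), Mapk14 with CHIR (0.0399 mean of probes, -0.11 to 0.13 without 1 array) and Pcna with AICAR (0.0171 quantile, 0.0225 spike-in, 0.0424 series matrix). Of the other values of named genes, 50 lost and 12 gained the call, 1398 kept side and direction. The causes were not tested.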
